A study of Mus musculus with 6 samples.

Results

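The sites described here are the ATAC-Seq sites that lie in the emptiest megabases of the mouse autosomes. In ATAC-Seq a transposase reaches and tags open DNA, and the number of reads from a site rises with its openness. Each tested site on chromosomes 1 to 19 was placed by its midpoint in a fixed bin of 1 Mb (mm10), and the members are all sites in bins that hold 20 or fewer tested sites. These sparse bins number 330 of the 2395 autosomal bins with a site (13.8%) and hold 3343 of the 225604 autosomal sites (1.48%), of 229903 in the whole series. The number of sites in a bin, and no level or difference between genotypes, chose the members. A site had to be found as a peak by the authors before it could be counted.

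The cells were primary mouse embryonic fibroblasts (pMEFs), grown directly from C57bl6 embryos in serum-containing medium, with 3 HAT1 WT lines (HAT1+/+) and 3 HAT1 KO lines (HAT1-/-). The HAT1-/- lines came from embryos that lacked HAT1, so its loss preceded culture, and the labels name no treatment or time course. The values used are the authors' means over the lines of a genotype, in log2 normalized reads per site, so no spread between lines and no effect of a single line can be computed from them, and the authors' own P values per site were not used. Quartiles below are over sites and SDs over chromosomes, and neither stands for the error between lines. All 10 fibroblast marker genes examined (among them Col1a1, Col1a2, Thy1, Twist1 and Pdgfrb) had a site within 1 kb of their start, with WT levels from 4.20 to 8.19 and a median of 6.16 (log2). Of the 4 immune markers 2 had such a site, as did 2 of 4 epithelial, 2 of 3 neural and 3 of 3 endothelial markers. Their median WT levels were 3.915 (immune), 4.45 (epithelial), 6.035 (neural) and 4.95 (endothelial). The level at a start thus does not set fibroblast markers apart from neural ones, and accessibility at a start does not measure expression.

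HAT1 acetylates newly made histone H4 before it is deposited behind the replication fork. Gene deserts are long AT-rich stretches with few or no protein-coding genes, often found around developmental and neuronal adhesion genes. Much of this chromatin lies at the nuclear lamina and is compact in fibroblasts, and open sites within it are few. Many such sites carry features of enhancers, among them the motif of AP-1, a family of Fos and Jun factors that is active in growing fibroblasts.

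The sequences below show the kinds of site found in sparse bins. The first set holds the 4 members with the lowest KO minus WT difference among those with a WT level of at least 5 (32 reads). Each is the central 200 bases of the site, read from GRCm38 (the assembly of mm10) on the plus strand, with capitals at the AP-1 motif TGANTCA.

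chr12:60344596-60344795: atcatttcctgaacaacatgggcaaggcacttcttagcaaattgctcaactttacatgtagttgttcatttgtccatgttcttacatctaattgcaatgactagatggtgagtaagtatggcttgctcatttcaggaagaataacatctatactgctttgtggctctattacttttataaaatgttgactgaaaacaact
chr1:124299238-124299437: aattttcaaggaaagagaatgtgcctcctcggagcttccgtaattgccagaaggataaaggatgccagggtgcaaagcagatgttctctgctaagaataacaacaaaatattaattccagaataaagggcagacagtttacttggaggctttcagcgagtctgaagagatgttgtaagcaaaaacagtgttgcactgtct
chr14:111403663-111403862: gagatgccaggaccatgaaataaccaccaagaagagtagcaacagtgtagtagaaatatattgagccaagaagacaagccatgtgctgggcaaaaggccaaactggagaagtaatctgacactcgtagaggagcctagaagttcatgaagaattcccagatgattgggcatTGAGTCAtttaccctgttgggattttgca
chr1:113288406-113288605: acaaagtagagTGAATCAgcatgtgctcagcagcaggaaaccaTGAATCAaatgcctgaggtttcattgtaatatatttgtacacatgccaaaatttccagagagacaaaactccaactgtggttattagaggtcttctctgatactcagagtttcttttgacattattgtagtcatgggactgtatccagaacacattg

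These windows are AT-rich, with a GC content of 35% to 44%, and 2 of the 4 hold the pattern TGANTCA. On chromosome 14 the match is TGAGTCA, and both matches in the last window on chromosome 1 are TGAATCA. The site on chromosome 12 (60344534 to 60344856) went from 36.8 normalized reads (HAT1+/+) to 2.20 (HAT1-/-), a log2 difference of -4.06. It is intergenic and 1125 kb from the nearest protein-coding gene, Fbxo33. The site on chromosome 1 from 124299061 to 124299613, 254 kb from Dpp10, had 49.9 and 3.53 reads (-3.82). On chromosome 14 the site from 111403605 to 111403920, 271 kb from Slitrk5, had 50.2 and 3.68 reads (-3.77). The site on chromosome 1 from 113288244 to 113288766 had 62.7 and 4.72 reads (-3.73), and it lies 0.835 kb from an annotated transcript start, while its nearest protein-coding gene, Dsel, is 1424 kb away. All 4 were chosen for these differences, which are therefore a description.

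The second set holds the members with the highest WT level and the member with the highest difference among those with a KO level of at least 5. They lie at the starts of named genes, and capitals mark CG dinucleotides, which are dense in the promoters of many widely expressed genes. The window on chromosome 7 is not dense in them, with 4, against 13 on chromosome 9 and 20 on chromosome 12.

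chr9:4309550-4309749: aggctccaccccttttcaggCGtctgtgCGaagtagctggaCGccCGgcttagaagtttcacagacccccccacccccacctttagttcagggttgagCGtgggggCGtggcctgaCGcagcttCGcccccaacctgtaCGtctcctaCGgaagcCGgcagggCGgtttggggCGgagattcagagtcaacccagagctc
chr7:41633234-41633433: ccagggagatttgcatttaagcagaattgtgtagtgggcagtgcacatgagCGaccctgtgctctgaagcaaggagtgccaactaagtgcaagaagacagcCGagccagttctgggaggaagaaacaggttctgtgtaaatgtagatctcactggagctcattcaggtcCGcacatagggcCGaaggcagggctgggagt
chr12:20815678-20815877: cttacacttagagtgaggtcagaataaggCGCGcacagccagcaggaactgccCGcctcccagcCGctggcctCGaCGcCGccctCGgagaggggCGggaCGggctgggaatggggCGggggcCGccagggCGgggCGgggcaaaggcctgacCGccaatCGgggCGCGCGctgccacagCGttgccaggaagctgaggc

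The first lies at Aasdhppt, which encodes the enzyme that attaches the phosphopantetheine arm to carrier proteins, and its site (4309133 to 4310165) had 1351 reads in HAT1+/+ and 1428 in HAT1-/- cells. The second lies at the zinc finger gene Zfp788 (site 41632678 to 41633989), with 1269 and 1218 reads. Next in WT level were the promoters of Ppp2r1a, a scaffold subunit of protein phosphatase 2A (1261 and 1342 reads), and of Ube3a, a ubiquitin ligase (885 and 832 reads). These 4 strongest sites differed by -0.09 to 0.09 on the log2 scale. The last sequence is the start of the non-coding gene 1700030C10Rik (site 20815488 to 20816066), with 67.2 and 146 reads. It was the only member with a KO level of at least 5 that was higher in HAT1-/- cells by 2-fold or more (log2 difference 1.12). The next highest differences were at intergenic sites on chromosome 5 (80883770 to 80884228, 24.3 and 46.5 reads, 0.94) and chromosome 13 (86100694 to 86101015, 17.6 and 32 reads, 0.86).

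Across all members the level was close to that of other sites in HAT1+/+ cells and well below it in HAT1-/- cells. In HAT1+/+ cells the median member had a log2 level of 3.65 (quartiles 2.96 and 4.54), or 12.6 normalized reads, against 3.87 (3.13 and 4.90), or 14.6 reads, at other autosomal sites. In HAT1-/- cells it had 2.94 (2.28 and 3.65), or 7.67 reads, against 3.8 (3.10 and 4.81), or 13.9 reads. The quartiles of the 2 sets overlap in both genotypes. Each site had to be a peak, so a member low in HAT1-/- cells could be found mainly through its HAT1+/+ reads. Here and below, a HAT1+/+ level near that of other sites is therefore partly set by how sites were found. The KO minus WT difference of a site had a median of -0.62 in sparse bins (quartiles -1.36 and -0.04) and -0.06 elsewhere (-0.37 and 0.25). Members had at least 16 reads in 40.1% of cases in HAT1+/+ and 17.98% in HAT1-/- cells, against 46.3% and 44.1% of other sites.

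Added over all members, the HAT1-/- sum was 67.6% of the HAT1+/+ sum of normalized reads (the share of reads kept), and over other sites 95.0%. This sum is weighted by a few strong promoters. The 67 members with a WT level of at least 7 (128 reads) held 27.5% of the members' HAT1+/+ reads, and without them the share kept was 59.1% (94.6% for other sites under the same limit). Sites with a difference of -1 or less, a loss of 2-fold or more, numbered 1195 of 3343 (35.7%), where 5.12% of all autosomal sites were past this limit. Members make up 10.3% of the sites past it. At 1 or more were 84 members (2.51%), close to the 2.78% of all autosomal sites. The difference was below 0 at 76.4% of members and at 55.1% of all autosomal sites. Because members have few reads, single differences are imprecise. At the lowest deposited KO value of -0.43 sat 50 members (1.50%), against 0.45% of other sites. At the lowest WT value of -0.61 sat 37 members (1.11%), against 0.41% of other sites.

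Members were also smaller sites, yet in HAT1+/+ cells their reads per length matched. The median width was 226 bp (quartiles 161 and 332) in sparse bins and 255 bp (178 and 397) elsewhere. Per kb of site, the median was 59.1 normalized reads in HAT1+/+ cells for members and 59.8 for other sites, and in HAT1-/- cells it was 36.2 and 57.9. On this scale the 2 sets lay together in HAT1+/+ cells and apart in HAT1-/- cells. The match in HAT1+/+ cells is partly set by the need for each site to be a peak.

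The difference was graded with the density of the bin rather than changing at 20 sites. Bins with 6 to 10 sites had a median difference of -0.865 over 744 sites, those with 11 to 15 sites -0.64 over 1047, and those with 16 to 20 sites -0.49 over 1290. The emptiest bins, with 1 to 5 sites, had -0.605 over 262 sites. Outside the limit the median was -0.28 at 21 to 40 sites per bin, -0.12 at 41 to 60 and -0.07 at 61 to 80, and it ran between -0.06 and -0.03 in denser bins. The HAT1+/+ level fell little along this order, from 3.96 in bins of over 160 sites to 3.69 in those of 16 to 20, whereas the HAT1-/- level fell from 3.91 to 3.16. In bins of 1 to 5 sites both were lowest, at 3.37 and 2.61. Just inside the limit, the 15 bins with exactly 20 sites had a median difference of -0.50, and just outside it the 14 bins with 21 sites had -0.725.

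**Figure D1:**
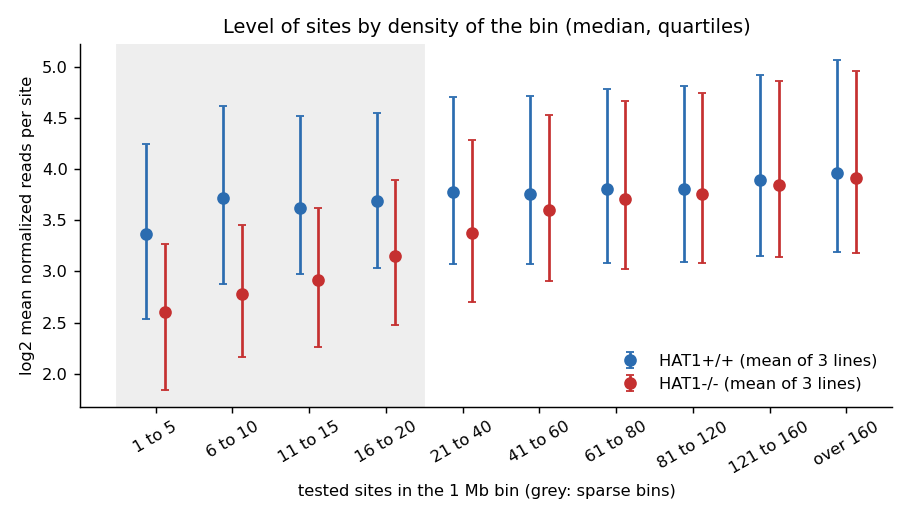
Median level of sites (log2 mean normalized reads, vertical axis) by the number of tested sites in their 1 Mb bin (horizontal axis), with bars from the first to the third quartile of sites, in HAT1+/+ (blue) and HAT1-/- cells (red). The genotypes lie together in dense bins and separate in sparse ones (grey), where the HAT1-/- median falls to 2.61 in bins of 1 to 5 sites.

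The lower difference of members was seen on every autosome, to unequal degree. The median difference of members minus that of other sites on the same chromosome was -0.55 ± 0.28 (SD, n = 19 chromosomes), below 0 on 19 of 19, and ranged from -1.27 on chromosome 1 to -0.16 on chromosome 13. The share of reads kept was lower in members than in other sites on 19 of 19 chromosomes. On chromosome 1, with 38 sparse bins and 367 members, the members' median was 3.84 in HAT1+/+ and 2.52 in HAT1-/- cells, and 45.1% of the reads were kept. Chromosome 14 followed, with 203 members, medians of 3.94 and 2.75, and 48.8% kept. These were the chromosomes where members had a HAT1+/+ median above that of other sites, by 0.03 and 0.18, and on the other 17 it was lower. On chromosome 13, with 6 sparse bins and 51 members, 92.4% of the reads were kept. Chromosome 9 kept 95.2% over 107 members with a median difference of -0.27, and without its Aasdhppt promoter site 92.2%. Other sites kept between 92.6% and 96.4% on every chromosome.

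**Figure D2:**
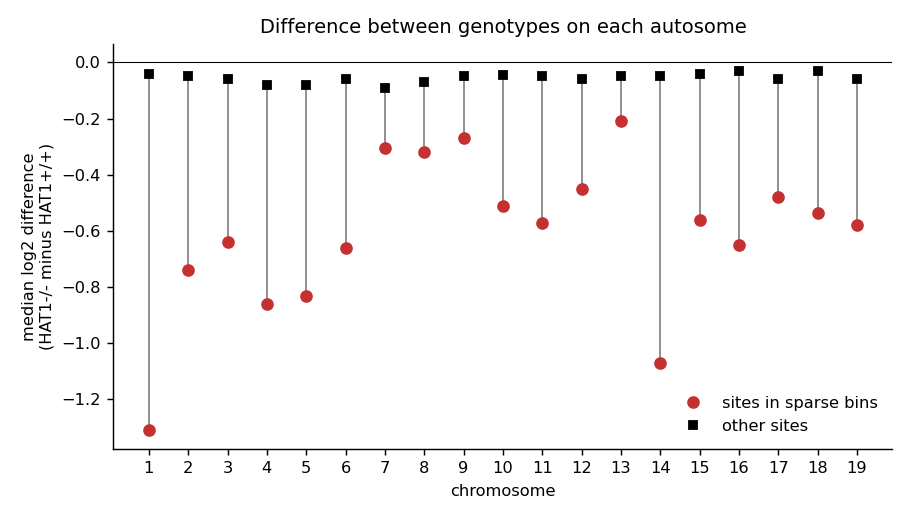
Median log2 difference, HAT1-/- minus HAT1+/+, of the sites in sparse bins (red circles) and of other sites (black squares) on each autosome (horizontal axis), from the authors' genotype means. Every red point lies below its black point, with the widest gap on chromosome 1 (-1.31 against -0.04).

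Bin by bin, 283 of the 330 sparse bins (85.8%) had a median difference below 0 and 100 had one of -1 or less. Of 2065 other bins, 1553 (75.2%) were below 0 and 27 at -1 or less. The sparse bins had quartiles of -1.21 and -0.20, the others of -0.12 and -0.005. Fewer than 50% of the HAT1+/+ reads were kept in 121 sparse bins and 28 others. Thus sparse bins did not move as a block, and a part of them stayed near the level of dense bins.

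Sparse bins tended to lie side by side. They formed 176 runs, of which 93 were single bins, and 9 runs of 5 or more bins held 56 of the 330. With sites pooled over chromosomes, the longer the run, the lower the difference. Over sites the median was -0.485 in single sparse bins, -0.52 in runs of 2, -0.685 in runs of 3 to 4 and -1.195 in runs of 5 or more, where 54.4% of the 524 sites had lost 2-fold or more and 51.4% of the reads were kept. The HAT1+/+ level had the opposite order, with a median of 3.49 in single bins, 3.63 in runs of 2, 3.76 in runs of 3 to 4 and 3.87 in the long runs. Sites low in HAT1-/- cells could be found mainly through their HAT1+/+ reads, so this order may be partly set by peak calling. Several of the long runs lie on chromosomes 1 and 14, where members had the lowest median differences (-1.31 and -1.07). Run length was not tested apart from chromosome. Over all runs together, the difference was also lower further from denser chromatin. Sparse bins next to a bin of more than 20 sites had a median of bin medians of -0.56 (252 bins), those 2 bins away -0.795 (57 bins), those 3 away -1.45 (15 bins) and those 4 away -2.77 (4 bins). One of these 4, on chromosome 14 (3000001 to 4000000), is a single sparse bin beside bins without a site, with 19 protein-coding starts and 1 site at the lowest deposited KO value, and without it the median was -2.61 (3 bins, 25 sites). The 2 bins further inside had -1.24 and did not extend this order. Bins 3 or more away lie mostly in the 9 runs of 5 or more bins, so distance was not told apart from run. Within a run the order did not always hold. On chromosome 3 (42000001 to 48000000) the end bins had -1.795 and -0.19, and those 3 away -1.71 and -0.37. On the outer side, the first bin had -0.10 (307 bins), with 92.7% of its reads kept, and the second -0.05 (247 bins).

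**Figure D3:**
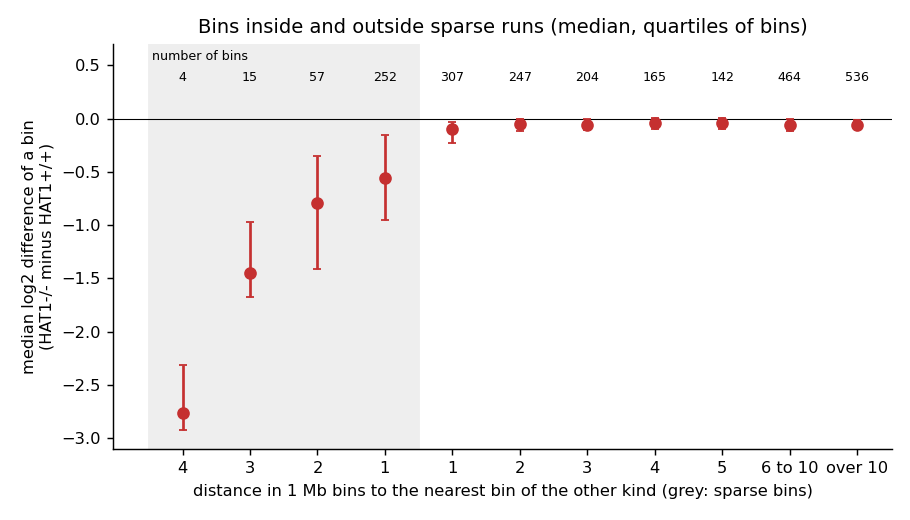
Median log2 difference of a 1 Mb bin, HAT1-/- minus HAT1+/+ (vertical axis), by its distance in bins from the nearest bin of the other kind, sparse bins on grey to the left and bins of more than 20 sites to the right. Points are medians and bars quartiles over bins, with the number of bins above each; another 2 sparse bins lay further inside and are not drawn. The drawn medians, over all runs together, deepen inwards to -2.77 (4 bins) and lie between -0.10 and -0.04 outside.

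The 6 longest runs hold 1 to 10 protein-coding starts each, and each includes adhesion genes of neurons among them. The longest, of 10 bins on chromosome 1 (108000001 to 118000000), has 10 protein-coding starts. Among its genes are the cadherins Cdh7 and Cdh19, the epimerase Dsel and the contactin-associated Cntnap5a. Its 89 sites had medians of 3.82 in HAT1+/+ and 2.36 in HAT1-/- cells, or 14.1 and 5.13 reads, and kept 37.2% of the reads. Of these sites 61 (68.5%) had lost 2-fold or more and 1 had gained as much. Its strongest site, at the start of Dsel (111864056 to 111865207), had 867 and 437 reads (-0.99). The next strongest, an intergenic site with an AP-1 motif (110483444 to 110483929), had 119 and 33.4 reads (-1.83).

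A run of 7 bins on chromosome 14 (107000001 to 114000000) contains Slitrk1, Slitrk5 and Slitrk6, transmembrane proteins that organise synapses. It had 78 sites, medians of 4.06 and 2.59 and 36.9% of the reads kept, and all 7 bins had a median below 0. The promoter site of Slitrk5 from 111675114 to 111676301 had 109 and 50.6 reads. On chromosome 3 (42000001 to 48000000), around Pcdh10, a protocadherin, the 88 sites had medians of 4.00 and 2.70 and kept 48.7%. The promoter of Pcdh10 itself (45378069 to 45378497) had 133 and 112 reads, a difference of -0.25, while 44 of the 88 sites had lost 2-fold or more.

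Another run on chromosome 1 (99000001 to 105000000), with Cntnap5b and Cdh20, had the lowest median difference of the 6, -1.97 over 59 sites, with medians of 4.00 and 2.24. An intronic site of Cntnap5b in it (100180053 to 100180460) had 307 and 278 reads, whereas an intergenic site less than 1 Mb away (99317082 to 99318078) had 89.9 and 13.8. The run around Cdh8 on chromosome 8 (96000001 to 102000000) had 36 sites, medians of 3.69 and 2.85 and 48.9% kept. The run around Cdh9 and Cdh10 on chromosome 15 (14000001 to 20000000) stood apart. Its 56 sites had medians of 3.60 and 2.94, a median difference of -0.27 with quartiles of -1.25 and 0.32, and 77.8% of the reads kept. Of these, 16 sites had lost and 6 had gained 2-fold or more, and the strongest, near the start of Cdh10 (18820442 to 18820967), had 94.4 and 78.2 reads.

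**Figure D4:**
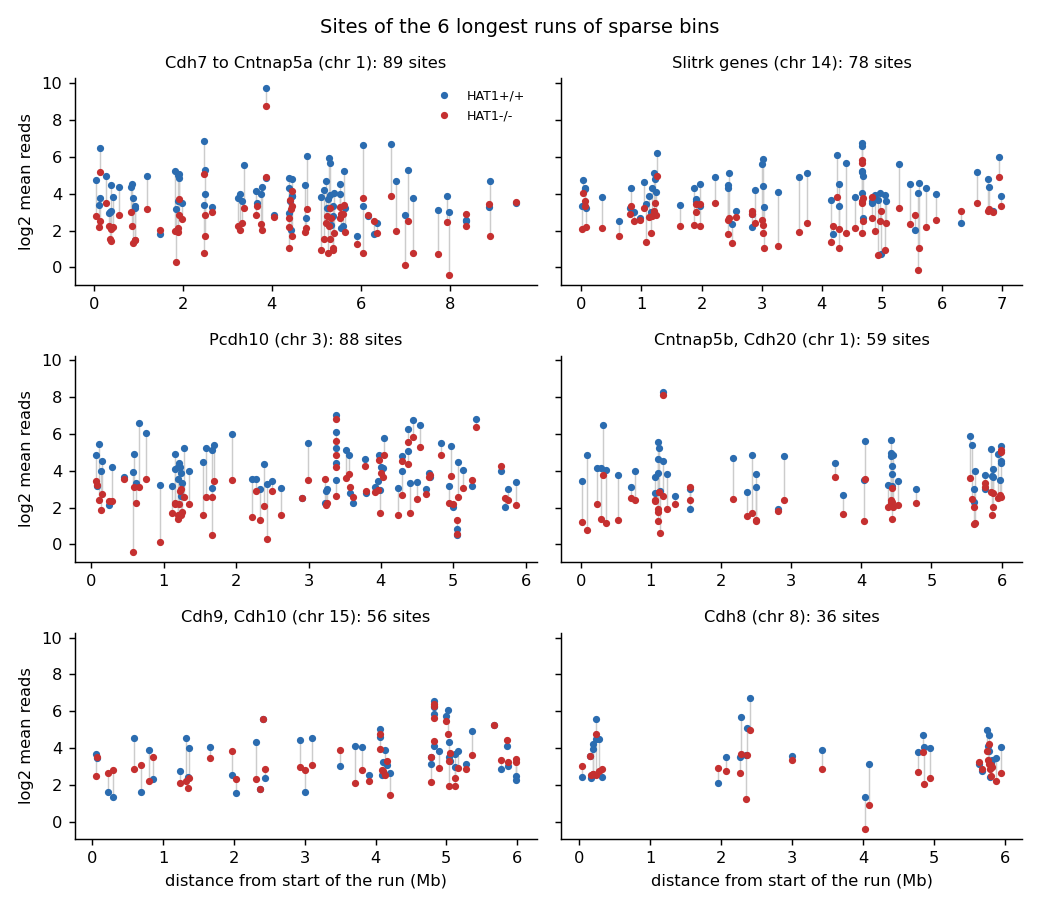
Level of every site (log2 mean normalized reads, vertical axes) in the 6 longest runs of sparse bins, by distance from the start of the run in Mb, with HAT1+/+ in blue, HAT1-/- in red and a grey line joining the values of a site. In the first 4 panels and around Cdh8 most red points lie below their blue points, while around Cdh9 and Cdh10 they lie on either side.

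Of the 174 sparse bins with at least 10 sites, those with the lowest and highest medians show the range. The lowest was on chromosome 3 (43000001 to 44000000), where the 18 sites had medians of 4.21 and 2.20, 17 had lost 2-fold or more and 22.3% of the reads were kept. Bins on chromosome 2 (100000001 to 101000000), chromosome 1 (103000001 to 104000000) and chromosome 12 (60000001 to 61000000) followed, with medians of -2.21, -2.13 and -2.02 and 21.9%, 23.0% and 18.5% kept. None of these 4 bins has a protein-coding start. The highest, 0.42, was on chromosome 9 (38000001 to 39000000), where 12 sites had medians of 3.93 and 4.06. This bin has 45 protein-coding starts, many of olfactory receptor genes, but 7 of its sites lie in Vwa5a (median difference 0.66) and the other 5 had 0.23. A bin on chromosome 1 without a protein-coding start (148000001 to 149000000) had 0.34 over 11 sites but kept only 64.2% of its reads. Bins of Vmn2r and zinc finger genes on chromosome 7 (42000001 to 43000000; 0.18) and of olfactory receptor genes on chromosome 7 (108000001 to 109000000; 0.125) came next. In the latter, 8 of the 18 sites lie in Tub (-0.105) and the other 10 had 0.165.

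Gene content divided the sparse bins. The 170 bins with 0 protein-coding starts had a median difference over sites of -0.70 and kept 55.6% of their reads, and the 101 bins with 1 to 2 starts had -0.73 and 62.4%. The 59 bins with 3 or more starts had -0.12 and 93.0%. In 30 of these 59, olfactory, vomeronasal, trace amine, defensin or Mrgpr genes start, and their 266 sites had medians of 3.22 and 3.18, a median difference of -0.075, and 10.9% lost 2-fold or more. The other 29 had -0.215 over 254 sites, with 21.3% lost. The 30 chemosensory and defence bins are rich in repeated sequence, with a soft-masked share of 49.3% in the median bin against 44.1% over all sparse bins and 30.3% in other bins. Sparse bins with a soft-masked share of at least 50% had a median difference of -0.175, and those under 40% had -0.68. The part of repeated sequence in the number of sites found was not tested.

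Sparse bins were AT-rich, and the difference was nearest 0 in those with most GC. The median bin had 37.3% GC, against 42.4% in other bins. Sites in sparse bins under 37% GC had a median difference of -0.87 with 53.1% of the reads kept, and the median was -0.56 at 37 to 38%, -0.63 at 38 to 39%, -0.315 at 39 to 40% and -0.11 at 40% or more. Other sites in bins of the same GC classes had -0.25, -0.16, -0.11, -0.08 and -0.05. So members had the lower value in all 5 classes of GC content, and the gap was narrowest in the highest class. That class has no upper limit, and GC reached 45.2% in sparse bins and 53.7% in other bins. Its 238 members also had a lower HAT1+/+ median than its other sites (3.035 against 3.88).

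Members also had the lower value within classes of other properties in which sparse bins differ. Members had their nearest neighbouring site at a median of 14.1 kb, other sites at 1.89 kb. Among sites at least 25 kb from any other, the 1278 members had a median difference of -0.665 and the 3974 sites outside sparse bins -0.23, with 62.6% and 87.9% of the reads kept. Both had a HAT1+/+ median of 3.48. Members within 5 kb of another site had -0.49. In bins with 0 protein-coding starts, the 1709 members had -0.70 and the 5101 other sites -0.15. Within classes of mean level over both genotypes, members had -0.36 under 8 reads, -0.69 from 8 to 16, -0.90 from 16 to 32, -0.83 from 32 to 64 and -0.38 at 64 or more, and other sites lay between -0.09 and 0.01 in every class.

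Members were mostly distal. Of 3343, 2129 (63.7%) were intergenic and more than 3 kb from any annotated transcription start, 643 (19.2%) were intronic, 34 exonic and 537 (16.1%) within 3 kb of a start. Other sites were 31.7% intergenic and 27.8% within 3 kb. Intergenic members had a median difference of -0.69 with 55.6% of the reads kept, and intronic members -0.67 with 60.2%. Members within 3 kb of a start had -0.30 with 86.4%, where other such sites had -0.07 with 95.7%. Among the 67 strongest members, the 54 within 3 kb of a start had a median of -0.06, and 4 of them had lost 2-fold or more. The 13 strongest members beyond 3 kb had a median of -1.0, and 7 of them had lost as much. These 67 were chosen by their WT level, which is part of the difference, so the choice itself favours lower differences. The same shares were not computed for other sites at this level. At a WT level of at least 5, 50.6% of members and 2.98% of other sites had lost 2-fold or more. By distance to a start, the median of members was -0.55 at 3 to 50 kb, -0.86 at 50 to 200 kb and -0.78 over the 244 members beyond 200 kb, where other sites had -0.04, -0.10 and -0.25.

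Over all members, the classes with 0 and 1 to 4 CpG had lower median differences than those with 5 to 9 and 10 or more. In the central 200 bases, 33.1% of members had 0 CpG against 13.6% of other sites, and the median GC content was 44.0% against 50.0%. The median difference was -0.745 for members with 0 CpG, -0.61 with 1 to 4, -0.27 with 5 to 9 and -0.37 with 10 or more, and 41.3%, 35.4%, 23.1% and 18.1% of them had lost 2-fold or more. Other sites lay between -0.09 and -0.04 in the same classes. Even in the class richest in CpG the 177 members had a lower HAT1+/+ level than other sites, with medians of 4.93 and 6.46. Of these 177, 154 lie within 3 kb of a start, and among members that near a start the order was the reverse, with -0.405 at 10 or more CpG and -0.27 over the 383 with fewer.

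The AP-1 motif TGANTCA is its own reverse complement apart from the free base, and matches with any middle base were counted together. It was found in the central 200 bases of 1123 members (33.6%) and of 22.8% of other sites. Members with it had medians of 3.96 in HAT1+/+ and 2.99 in HAT1-/- cells, and a median difference of -0.92. Members without it had 3.47, 2.92 and -0.47. Outside sparse bins the difference was -0.04 with the motif and -0.06 without. Beyond 3 kb of a start, 1035 members with the motif had -0.93 (quartiles -1.68 and -0.325) and 1771 without had -0.54 (-1.27 and 0.02). Of these, 47.1% and 33.6% had lost 2-fold or more, and 52.0% and 60.6% of the reads were kept. The order was the same in each class of mean level, with -0.72 against -0.32 under 8 reads, -0.95 against -0.61 from 8 to 16, -1.085 against -0.89 from 16 to 32 and -1.04 against -0.71 at 32 or more. It was also the same at a window GC content of 40 to 50% (-0.89 against -0.54).

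Other motifs were searched on both strands of the same window. GGAATG, the core recognised by TEAD factors, was in 18.8% of members and 15.5% of other sites, and members with it had a median difference of -0.84 against -0.58 without. The CTCF core (CCA, any 2 bases, AG, any base, GGGC) was in 72 members (2.15%) and in 2.65% of other sites. Members with it had -0.395 and those without -0.63. TGACGTCA, the cyclic AMP response element, was in 11 members (0.33%, against 0.44% of other sites), too few to describe further. A match is a run of letters and not an observed binding event.

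**Figure D5:**
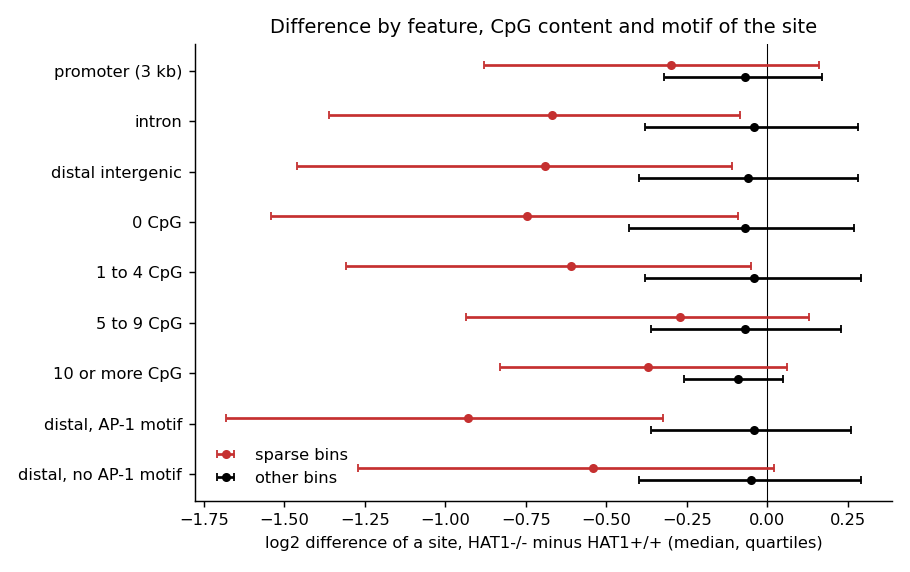
Log2 difference of a site, HAT1-/- minus HAT1+/+ (horizontal axis), as median with bars to the quartiles over sites, by annotated feature (exons not drawn), CpG dinucleotides in the central 200 bases, and presence of the AP-1 motif in sites beyond 3 kb of a start, for sparse bins (red) and other bins (black). Sparse-bin medians run from -0.93 (distal, AP-1 motif) to -0.27 (5 to 9 CpG), while all black medians drawn lie between -0.09 and -0.04.

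Members were found in the bodies of 186 protein-coding genes, of which 72 (38.7%) span at least 100 kb. The 23 genes with 10 or more members span at least 149 kb each. A list of 32 genes, most but not all of them of neuronal adhesion and signalling, was also examined. All but Pcdh10 (57.2 kb) span at least 371 kb. Of these 32 genes 18 held members, 206 in all, with medians of 3.77 in HAT1+/+ and 2.90 in HAT1-/- cells. Of these members 87 (42.2%) had lost 2-fold or more, near the 35.7% of all members, and 8 had gained as much. Lsamp, an adhesion protein of the limbic system on chromosome 16, held the most, 39, with medians of 3.82 and 2.97 and 56.1% of the reads kept. Cntnap2, a neurexin relative, held 29 (4.19 and 3.16, 56.9% kept), and Lrp1b, a lipoprotein receptor relative, held 18 (3.51 and 2.48, 47.6% kept), of which 13 had lost 2-fold or more. Outside this list, Lrrc4c, a netrin-G ligand on chromosome 2, and Mdga2, a membrane-anchored adhesion protein on chromosome 12, were picked after their values were seen, as genes with like numbers of members. The 22 members in Lrrc4c had medians of 4.22 and 2.61, and 19 had lost 2-fold or more. The 20 members in Mdga2 had medians of 3.68 and 3.66, and 0 had lost as much.

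Among 12 type II cadherins, a family of homophilic adhesion proteins, 6 start in sparse bins and 5 held members. Cdh20 held 10 members with a median difference of -1.08, and Cdh12 held 9 with -0.70. The 5 members in Cdh10 had a HAT1+/+ median of 5.72, a median difference of -0.23 and 93.4% of the reads kept. Of 1556 autosomal chemosensory and defence genes, 645 start in sparse bins, 161 held any site and 22 held a member, and the 24 members in them had medians of 3.02 and 2.76. The largest number in one gene was 2, in Olfr1226 (4.90 and 3.58) and in Olfr1505 (2.51 and 2.57). The 18 fibroblast genes of the extracellular matrix and cell surface examined, such as Col1a1, Fn1 and Postn, all held sites, and 0 of them held a member. Members are 1.48% of autosomal sites, so 0 of 18 genes does not set this list apart. The share of all protein-coding genes that hold a member was not computed for comparison with any of these lists.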

How the data were processed

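The authors processed the reads with the ENCODE ATAC-Seq pipeline, aligned them to mm10 with Bowtie2, called peaks with MACS2 and compared genotypes with DiffBind 2.14.0. The values used are the authors' deposited log2 mean normalized reads per site for each genotype. The consensus rule and the library normalization are not given in the sources used here, and raw depth is unknown. The deposited fold change, P and FDR are the authors' own comparison and were not used. Differences were computed as the KO minus the WT log2 level. With 1 mean per genotype no test was possible, and a limit of 2-fold (1 on the log2 scale) describes size. The lowest deposited values, -0.61 in WT and -0.43 in KO, are a floor.

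Chromosome names and lengths were checked against GRCm38. Features came from GENCODE vM21 (a promoter is within 3 kb of any transcript start, by site midpoint), and sequence and soft-masking from the RefSeq copy of GRCm38. Python 3.11.15, pandas 2.3.3, numpy 2.4.6 and matplotlib 3.10.9 were used, and the summaries were tested on simulated data. The members and lists were chosen with earlier results of these data known. The sites, bins and runs named were the 6 longest runs, the 4 lowest and 4 highest bins of at least 10 sites, the 4 strongest members, the 4 with the lowest difference (WT level at least 5), the 3 with the highest (KO level at least 5), and the 3 genes of each list with most members. The strongest sites within runs, Lrrc4c and Mdga2, Vwa5a and Tub, gene lengths, and the classes of CpG and of AP-1 by level were added after values were seen. Alternatives tried were other limits, bins, scalings, filters and a pseudocount, and leaving out each chromosome.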

Additional observations from a re-analysis of the deposited data

How the results depend on the processing

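With 10 or fewer sites per bin the median KO level of members minus that of other sites was -1.03, and with 40 or fewer it was -0.57, against -0.86. A pseudocount of 5 reads gave -0.58 for this level and left 20.8% of members at -1 or less and 0.15% at 1 or more. Requiring a mean of at least 16 reads turned the WT level of members from -0.22 below other sites to 0.08 above them, and left 0.21% at 1 or more. The median bin had 0.0% of its sites at 1 or more. These are the alternatives that moved a value by over 1 SD between chromosomes or turned its sign, of 32 settings for each of 6 results. With each chromosome left out, the median difference of members minus others ran from -0.59 to -0.51 and the share of reads kept from 65.4% to 70.3%. When KO values were rescaled to equal sums over autosomal sites, 71.4% of the members' reads were kept. Added after seeing the data was the removal of bins with chemosensory or defence genes, which gave -0.61 and 63.0% kept. With 40 or fewer sites this difference was -0.31 and with the pseudocount -0.37, against -0.56. No paired analysis was possible because the deposited values are genotype means, and the labels give the lines no replicate numbers. Low read numbers make single sites imprecise.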

Other observations

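Outside the members, 78 autosomal bins had no tested site, of which 60 consist of unknown bases. The other 18 have sequence. In 5 of them chemosensory or defence genes start, 11 hold 8 or more protein-coding starts and 3 hold none. Their soft-masked share ran from 47.0% to 67.3%, with a median of 54.5%, above the 44.1% of the median sparse bin. Of the 18, 16 lie beside a bin of 20 or fewer sites, where bins without any site were counted too.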
